A study of Mus musculus with 4 samples.

Results

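C1qa, C1qb, C1qc, Apoe and Cd5l are genes for secreted proteins that are best known from tissue macrophages, and they were followed here across 4 subsets of dendritic cells (DCs) from mouse spleen. All probe sets that the platform annotation gives to these 5 symbols were taken, which made 7 of 45101 probe sets, or 5 of 18193 named genes. C1qb had 3 probe sets and each other gene had 1. The genes were chosen by their signals on these same arrays, in which they had moved together. There was 1 Affymetrix array for each of the subsets titled CD8+CX3CR1+, CD8+CX3CR1-, CD4+ and DN, the last a common short form for cells with neither CD4 nor CD8. All cells were sorted for high CD11c from spleens of Cx3cr1gfp/+ mice on the C57BL/6 background, which carry a fluorescent reporter in place of a copy of the chemokine receptor gene Cx3cr1, so that copy of the gene is missing in every group, and none was treated with BMP4. Nothing used here gives the age or number of the mice, the gates, or whether spleens were pooled. In the labels, the field for the DC type reads CD8+CX3CR1+ for the array titled CD8+CX3CR1- and CD4+ for the array titled DN, and groups were taken from the titles. The signals of the sort markers went with the titles. Cd8a was 2530, 4742, 18.7 and 129.5 on the CD8+CX3CR1+, CD8+CX3CR1-, CD4+ and DN arrays, Cx3cr1 was 893.7, 97.3, 275.0 and 258.4 and Cd4 was 93.3, 21.1, 563.5 and 93.9, while Itgax, the CD11c gene, lay between 3271 and 6415 on all arrays.

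C1qa, C1qb and C1qc encode the chains of C1q, which assemble together into the recognition molecule of the classical complement pathway. C1q binds antibody complexes and dying cells, activates the proteases C1r and C1s, and is made largely by macrophages and dendritic cells rather than by the liver. Apoe encodes apolipoprotein E, which carries cholesterol and other lipids out of cells and delivers them through receptors of the LDL receptor family. Cd5l, also called AIM, encodes a secreted protein with scavenger receptor cysteine-rich domains that is made by tissue macrophages and promotes their survival. In macrophages Apoe and Cd5l are targets of the liver X receptors, which sense oxysterols.

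Since the results turn on genes that moved together, the 250 bases before the start of C1qb, C1qc and Cd5l are shown, from RefSeq on build GRCm38.p6. Of the 5 genes 4 matched an entry, and C1qa is named only. The windows are chr4:136886201-136886450 (minus strand) for C1qb, chr4:136892915-136893164 (minus strand) for C1qc and chr3:87357631-87357880 (plus strand) for Cd5l. They are written 5′ to 3′ on the gene's strand, and capitals mark matches on either strand to AGGAAG, the core bound by Ets factors such as PU.1, to TCATGTG, the M-box bound by the MITF and TFE factors, and to TGCTGA, a half-site of MAF factors.
C1qb: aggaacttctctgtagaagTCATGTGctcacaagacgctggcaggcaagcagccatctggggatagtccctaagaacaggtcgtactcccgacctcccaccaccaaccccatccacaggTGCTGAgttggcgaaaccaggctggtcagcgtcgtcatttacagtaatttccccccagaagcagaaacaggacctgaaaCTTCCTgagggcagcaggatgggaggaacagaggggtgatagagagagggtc
C1qc: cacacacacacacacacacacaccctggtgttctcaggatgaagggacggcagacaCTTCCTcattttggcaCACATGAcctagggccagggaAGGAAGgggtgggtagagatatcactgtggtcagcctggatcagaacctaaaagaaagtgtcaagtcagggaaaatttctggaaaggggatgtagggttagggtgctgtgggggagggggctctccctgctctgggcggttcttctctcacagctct
Cd5l: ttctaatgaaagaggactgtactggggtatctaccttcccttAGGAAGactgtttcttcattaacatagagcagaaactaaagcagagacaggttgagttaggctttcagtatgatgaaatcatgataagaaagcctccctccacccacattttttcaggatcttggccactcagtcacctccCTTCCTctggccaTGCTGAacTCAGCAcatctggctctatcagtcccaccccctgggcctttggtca

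AGGAAG stood in all 3 of these windows, against 29.5% of the 32817 windows of the same length in the table. TCATGTG stood in the C1qb and C1qc windows, against 3.25% of all windows. TGCTGA stood in the C1qb and Cd5l windows, against 16.1%. Of the 3 windows listed for Apoe, the first from upstream held none of these motifs and the second held AGGAAG. The other motifs searched on both strands were CACGTG (6.02% of all windows), the interferon response element GAAA repeated after 2 free bases (2.97%), the nuclear receptor half-site AGGTCA (14%), the direct repeat of AGGTCA with 4 free bases between that liver X receptors bind (0.0152%), TATAAA (12.4%) and GGGCGG, bound by Sp1 (32.7%). In the windows of these 4 genes the only matches to these were AGGTCA, overlapping TCATGTG, and GGGCGG in C1qc, and TATAAA in the second Apoe window. A match is a run of letters and does not show that a factor binds there.

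All 5 genes had higher signals on the CD8+CX3CR1+ and CD4+ arrays than on the CD8+CX3CR1- and DN arrays. Values are MAS5 signals on a linear scale. A floor of 55.7, the 90th percentile of 127 probe sets for genes not expected in spleen, marks the level under which a signal was not told from background, and folds against a signal under it are given as bounds. A bulk array cannot tell fewer cells that make a transcript from less of it in each cell. With 1 array for each subset there is no test and no replicate error, and the genes were chosen with these values known, so the levels are a description of 4 arrays.

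Among the C1q chains, the brightest C1qb probe set, 1417063_at, had a signal of 742.0 in CD8+CX3CR1+, 60 in CD8+CX3CR1-, 358.3 in CD4+ and 70.2 in DN cells. C1qa had 196.9, 27.9, 202.7 and 40 on the same arrays in the same order. C1qc had 185.4, 6.6, 205.9 and 14.1. C1qa and C1qc were thus above the floor on the CD8+CX3CR1+ and CD4+ arrays alone, while C1qb was above it on all 4 arrays, though on the CD8+CX3CR1- array it lay under that array's own background percentile of 62.6. The second C1qb probe set, 1437726_x_at, had 300.4, 54.1, 355.5 and 57.5. The third, 1434366_x_at, had 273.4, 93.8, 264.0 and 132.1. Probe sets whose names carry _x hold probes that may also match other transcripts. The array order into high and low was the same for the 3 probe sets, but the contrast was narrowest for 1434366_x_at, and it was 1417063_at alone that placed the CD8+CX3CR1+ array clearly above the CD4+ array.

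Apoe, measured by 1432466_a_at, was far above the floor on every array, at 1726 in CD8+CX3CR1+, 523.1 in CD8+CX3CR1-, 1397 in CD4+ and 220.6 in DN cells. Its lowest signal was on the DN array. C1qa, C1qc and Cd5l were under the floor on both of the low arrays, so these have no order for them. Cd5l, measured by 1449193_at, had 176.7, 34.7, 147.7 and 55.3 in the same order. On the DN array it lay just under the floor, by less than 1 unit of signal, and above that array's own background percentile of 52.8.

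**Figure D1:**
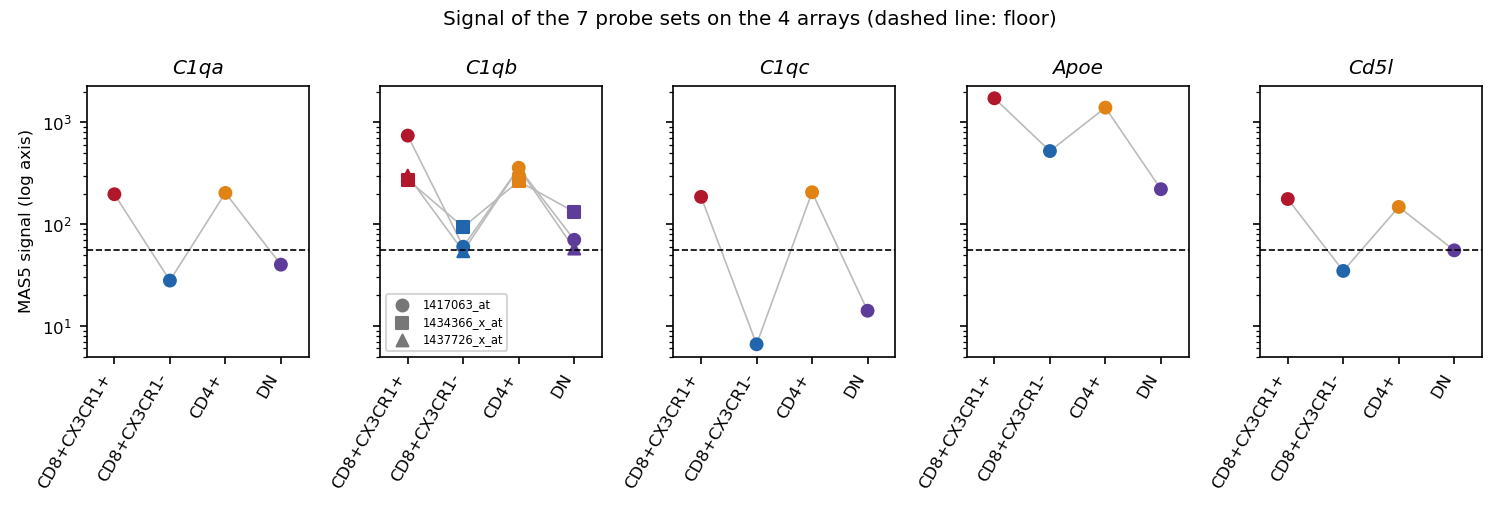
MAS5 signal (log axis) of the 7 probe sets of C1qa, C1qb, C1qc, Apoe and Cd5l on the CD8+CX3CR1+, CD8+CX3CR1-, CD4+ and DN arrays, 1 point for each probe set and array, with marker shape for the 3 probe sets of C1qb and a dashed line at the floor of 55.7. Lines join the values of a probe set and imply no order of the arrays; in every panel the CD8+CX3CR1+ and CD4+ points lie above the CD8+CX3CR1- and DN points.

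CD8+CX3CR1+ DCs were compared with CD8+CX3CR1- DCs, the other subset that carries CD8. C1qb was 12.4-fold higher in the CD8+CX3CR1+ cells (742.0 against 60), and Apoe was 3.3-fold higher (1726 against 523.1). C1qa was at least 3.53-fold, C1qc at least 3.33-fold and Cd5l at least 3.17-fold higher. Of the 5 genes 1 passed 4-fold, against 1.67% of the 12608 detected genes, those with a signal over the floor somewhere, and all 5 passed 2-fold, against 7.72%. Lower were 0 of the 5, against 1.15% at 4-fold and 5.81% at 2-fold. The 3 C1qb probe sets gave a mean log2 difference of 2.53 ± 1.05 (SD over probe sets), which measures probe error and not the spread between mice.

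On the CD4+ array, set against the DN array, the 5 genes were also higher. These arrays are not among those of the comparison just described, but the genes were chosen with the values of both comparisons known. Apoe was 6.33-fold higher (1397 against 220.6), the highest of all 12608 detected genes once signals under the floor were raised to it, with Cd4 itself next (log2 differences of 2.66 and 2.59). Genes under the floor on the DN array enter such ranks by their bounds, so they may lie higher. C1qb was 5.1-fold higher (358.3 against 70.2) and ranked 4 in the same floored order. C1qc was at least 3.7-fold, C1qa at least 3.64-fold and Cd5l at least 2.65-fold higher. At 4-fold, 9 genes were called higher on the CD4+ array, 0.0714% of those detected, and Apoe and C1qb were 2 of them. At 2-fold the share was 4.34%, and all 5 genes passed. Lower were 0 of the 5, against 0.182% at 4-fold and 3.23% at 2-fold. The C1qb probe sets gave log2 differences of 1.0 to 2.63, with a mean of 1.99 ± 0.87 (SD over probe sets).

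The CD8+CX3CR1+ array stood above the DN array by similar amounts. C1qb was 10.6-fold higher (742.0 against 70.2) and ranked 5 among all detected genes in the floored values, and Apoe was 7.83-fold higher (1726 against 220.6) and ranked 8. The 3 C1qb probe sets gave log2 differences of 1.05 to 3.4, with a mean of 2.28 ± 1.18 (SD over probe sets). The bounds were at least 3.53-fold for C1qa, 3.33-fold for C1qc and 3.17-fold for Cd5l. Of the 5 genes 2 passed 4-fold (0.278% of detected genes) and 5 passed 2-fold (2.97%), while 0 were lower (0.135% at 4-fold, 2.93% at 2-fold). On the CD8+CX3CR1- array, set against the CD4+ array, C1qb was 5.97-fold lower (60 against 358.3) and Apoe 2.67-fold lower (523.1 against 1397). C1qc was at least 3.7-fold, C1qa at least 3.64-fold and Cd5l at least 2.65-fold lower there. That made 1 gene lower by 4-fold (1.8% of detected genes) and 5 lower by 2-fold (9.11%), with 0 higher (1.18% at 4-fold, 6.78% at 2-fold). These comparisons reuse the same 4 arrays and do not count as further evidence.

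The remaining pairs set like against like. Between the CD8+CX3CR1+ and CD4+ arrays the log2 difference was -0.04 for C1qa, -0.15 for C1qc, 0.26 for Cd5l and 0.31 for Apoe, each smaller than the spread of 0.50 that probe sets of the same gene show in this pair (root mean square SD over 3394 genes). C1qb was 2.07-fold higher in CD8+CX3CR1+ cells by its brightest probe set (742.0 against 358.3), and its probe sets ranged from -0.24 to 1.05 (log2). None of the 5 passed 4-fold in either direction, where 0.397% of detected genes were higher and 0.373% lower, and C1qb alone passed 2-fold (4.47% higher, 4.89% lower). Between the CD8+CX3CR1- and DN arrays, C1qa, C1qc and Cd5l were under the floor on both, so no fold is given. C1qb was 60 against 70.2, a log2 difference of -0.23 inside the probe set spread of 0.47. Apoe was 2.37-fold higher in CD8+CX3CR1- cells (523.1 against 220.6), as were 4.75% of detected genes by at least 2-fold, so that Apoe separated the arrays on which the C1q chains and Cd5l were near or under background. At 4-fold, 0 of the 5 were called in this pair, where 0.738% of detected genes were higher and 1.28% lower, and at 2-fold 0 were lower (6.17%).

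**Figure D2:**
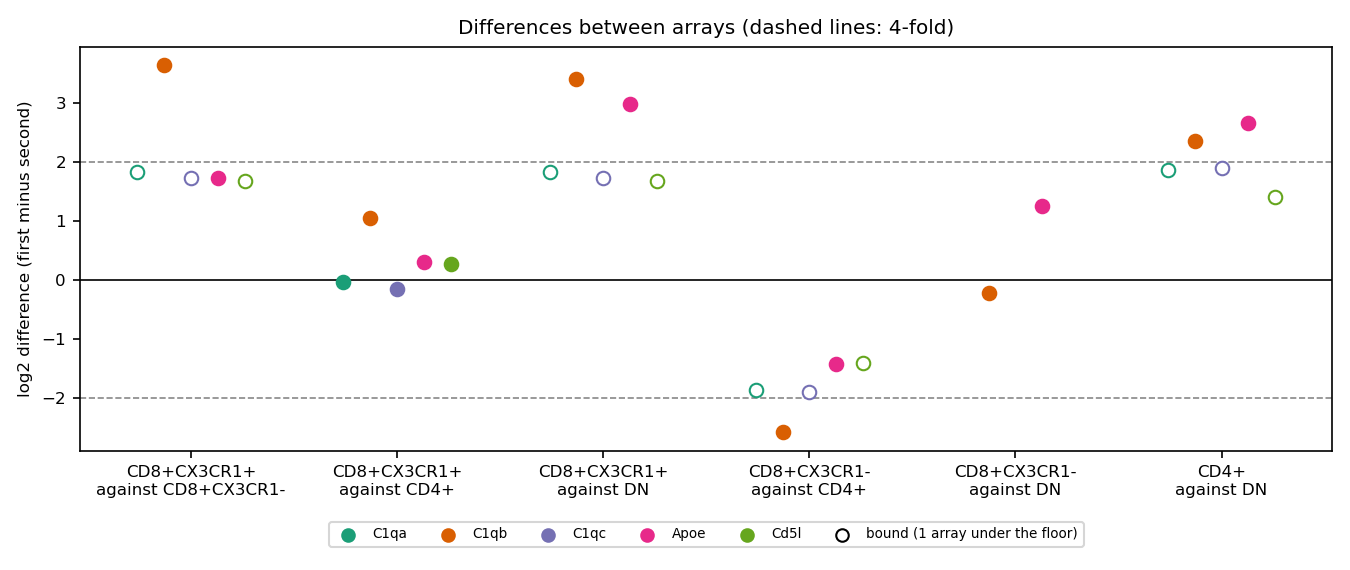
Log2 difference of C1qa, C1qb, C1qc, Apoe and Cd5l in the 6 pairs of arrays, the first-named array minus the second, with hollow points for bounds where 1 array was under the floor and dashed lines at 4-fold. All 5 points are above 1 for the CD8+CX3CR1+ array against the CD8+CX3CR1- and DN arrays and for the CD4+ against the DN array, all 5 are below -1 for the CD8+CX3CR1- against the CD4+ array, and pairs with both arrays under the floor have no point.

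The comparison of CD8+CX3CR1+ with CD8+CX3CR1- DCs and that of CD4+ with DN DCs share no array. Higher by at least 2-fold were 973 genes in the first and 547 in the second, and 84 genes were in both, or 8.63% of the first set and 15.4% of the second. These were 0.666% of all detected genes, and all 5 genes were among them. At 4-fold, 1 gene was higher in both comparisons, 0.00793% of those detected, and it was C1qb by its brightest probe set. With its probe sets averaged, C1qb had a log2 difference of 1.99 between the CD4+ and DN arrays and did not pass. This pairing of comparisons was chosen after the values were seen. The 5 genes were themselves chosen because they had moved together on these arrays. Their place among the shared genes follows from that choice and does not count as further evidence.

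**Figure D3:**
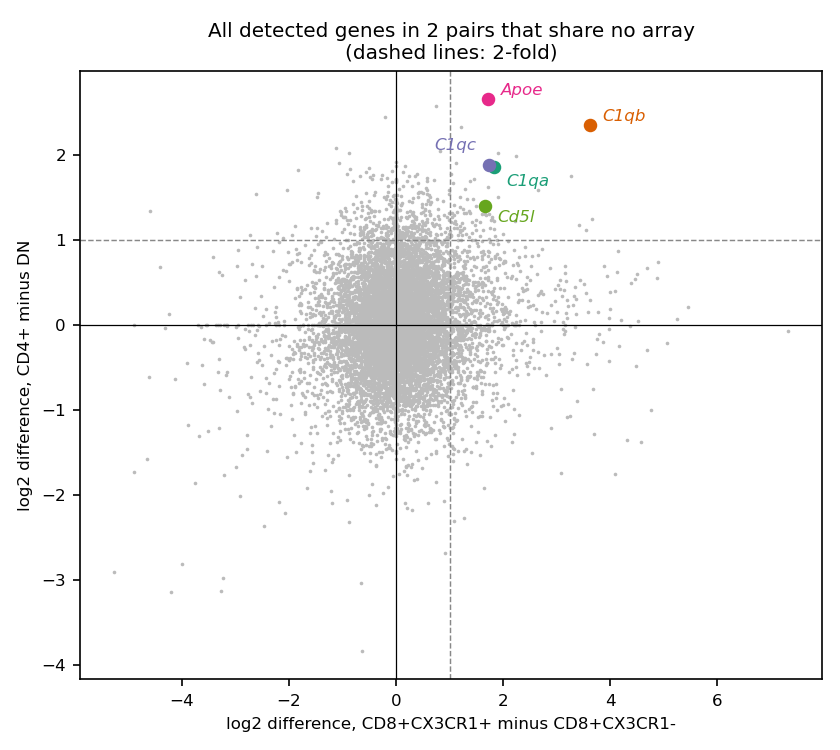
Each grey point is 1 of 12608 detected genes, with its log2 difference CD8+CX3CR1+ minus CD8+CX3CR1- on the x axis and CD4+ minus DN on the y axis, and dashed lines at 2-fold. The 5 named genes lie to the upper right, C1qb at 3.63 and 2.35 and Apoe at 1.72 and 2.66.

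Likeness between genes was measured as the root mean square distance between their log2 signals over the 4 arrays, each gene centred on its own mean and signals under the floor raised to it. C1qc was the gene nearest to C1qa, and C1qa the nearest to C1qc, among 12607 others, at a distance of 0.04. Cd5l was at rank 6 for each of them, at distances of 0.19 and 0.20. Apoe was at ranks 122 and 176 from C1qa and C1qc, and C1qb, the third chain, at ranks 998 and 1597. For C1qb, the larger span set the other 4 genes further off, at 0.70 to 0.78, yet they stood at ranks 8, 9, 10 and 19. For Apoe, C1qa, C1qc, Cd5l and C1qb stood at ranks 3, 6, 8 and 53. For Cd5l, whose span was narrower, C1qa and C1qc stood at ranks 15 and 17, but Apoe at 805 and C1qb at 6019. Genes at the floor on the same arrays look alike for that reason, and 4 points allow many near matches.

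Among other genes, with clone names passed over, the formyl peptide receptor gene Fpr2 was the nearest to C1qa and to C1qc, at 0.07 and 0.08, with signals of 208.4, 29.0, 227.4 and 50.8 on the CD8+CX3CR1+, CD8+CX3CR1-, CD4+ and DN arrays. It was followed for both by Niban3, Cul7, Trip10 and Med18. Nearest to C1qb were Timp2, an inhibitor of metalloproteases (537.6, 52.2, 193.7 and 57.1), Gpm6b, Cd79b, Fpr2 and Tlr5. Nearest to Apoe were Tex264, Fpr2, Trip10, Akap10 and Amdhd2, at 0.39 to 0.51. Nearest to Cd5l were Exoc6b, the Fc receptor gene Fcgr3 (193.2, 50.4, 153.1 and 63.4), Smox, Med18 and Cdkal1, at 0.06 to 0.14.

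The C1q genes lie next to each other on chromosome 4, in the order C1qb, C1qc, C1qa in the GRCm38.p6 gene table, and the 5 genes measured beside this cluster were near or under the floor. Of the 3 coding genes on either side, Ephb2 was not analysed here, Lactbl1 and Epha8 were under the floor on all arrays, and Tex46, Zbtb40 and Wnt4 reached at most 66.7, 79.8 and 62.6. Zbtb40 differed by no more than 0.20 (log2) in any pair. Apoe lies beside Apoc1, Apoc4 and Apoc2, genes of other apolipoproteins that in macrophages share an enhancer with it, on chromosome 7. All 3 were under the floor on all 4 arrays, with a highest signal of 39.4 among them. On its other side Tomm40, a mitochondrial import gene, ranged from 238.8 to 301.9, and Nectin2 and Bcam were under the floor on all arrays. Next to Cd5l on chromosome 3, Fcrl1 had 785.4, 209.2, 1039 and 534.8 on the CD8+CX3CR1+, CD8+CX3CR1-, CD4+ and DN arrays, highest on the CD4+ array and lowest on the CD8+CX3CR1- array, and Fcrls was above the floor on the CD4+ array alone, at 63.5. Further off, Cd1d1, for a lipid-presenting molecule, had 1024, 4606, 1476 and 1647 in the same order, highest on the CD8+CX3CR1- array, and Etv3 had 615.4, 749.6, 1098 and 796.1. Kirrel was under the floor on all arrays, and Fcrl5 was not analysed here.

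Of 21 further components and inhibitors measured, 12 were above the floor on at least 1 array. C1ra and C1s1, for the proteases that C1q activates, and Serping1, for their inhibitor, were under the floor on all 4 arrays. Between the CD4+ and DN arrays 0 of the 12 passed 4-fold and 1 passed 2-fold, C8a, with a median log2 difference of 0.10 against 0.01 over all detected genes. C8a was higher on the CD4+ array, as were 4.34% of detected genes by at least 2-fold. Cfp, which encodes properdin, a stabiliser of the alternative pathway convertase, was the brightest, at 2988, 553.1, 1445 and 1965 on the CD8+CX3CR1+, CD8+CX3CR1-, CD4+ and DN arrays. It was 5.4-fold higher in CD8+CX3CR1+ than in CD8+CX3CR1- cells, like the C1q chains, but 1.36-fold lower on the CD4+ than on the DN array. C2, the classical pathway protease, was 123.0 on the CD8+CX3CR1- array and under the floor on the others, and Hc, for complement C5, was 144.0 there and likewise under the floor elsewhere. Clu, for clusterin, had 74.3, 215.1, 179.2 and 115.5 on the CD8+CX3CR1+, CD8+CX3CR1-, CD4+ and DN arrays. Between the CD8+CX3CR1+ and CD8+CX3CR1- arrays, 1 of the 12 was higher by at least 2-fold, Cfp, where 7.72% of all detected genes were, and 3 were lower, C2, Hc and Clu, where 5.81% were. The median was 0.00, against 0.00 over all detected genes. C3, C4b and Cfd were not analysed here.

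Of 15 measured receptors that bind C1q or other complement fragments, 10 were detected. Their median log2 difference between the CD8+CX3CR1+ and CD8+CX3CR1- arrays was 0.25, against 0.00 over all detected genes. On the first of these arrays 0 were lower by at least 4-fold (1.15% of detected genes), and 3 were higher (1.67%). They were Cd33, an inhibitory receptor (at least 8.75-fold), Lrp1, an endocytic receptor for apolipoprotein E as well as for C1q-tagged cells (at least 5.76-fold), and Cd93 (at least 4.27-fold). Lair1, an inhibitory receptor for collagen that in human cells also binds C1q, was 3.3-fold higher (299.3 against 90.6). Between the CD4+ and DN arrays 0 of the 10 passed 2-fold, where 4.34% of detected genes were higher and 3.23% lower. Cd93 came closest, with 173.3 against 87.2, and had its 2 highest signals on the CD8+CX3CR1+ (237.9) and CD4+ arrays, as the C1q chains did. Lrp1 had 321.0, 37.2, 277.3 and 170.8 on the CD8+CX3CR1+, CD8+CX3CR1-, CD4+ and DN arrays.

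In the list of lipid efflux and apolipoprotein E receptors, 19 genes beside Apoe were detected, of 22 measured. Between the CD4+ and DN arrays 0 passed 4-fold and 3 were higher by at least 2-fold, Abca1, the cholesterol exporter that lipidates apolipoprotein E (155.6 against 41.8), Npc1, which moves cholesterol out of lysosomes (302.2 against 124.7), and the lysosomal lipase gene Lipa (2430 against 1033), with a median of 0.38 against 0.01. Of all detected genes, 0.0714% were higher and 0.182% lower by 4-fold in this pair, and 4.34% were higher by 2-fold. Abca1 was 151.3 in CD8+CX3CR1+ and 89.1 in CD8+CX3CR1- cells, and Npc1 was 266.7 and 129.4 there, so that these genes too had their higher signals on the CD8+CX3CR1+ and CD4+ arrays. Lipa had 1111 in CD8+CX3CR1+ and 2426 in CD8+CX3CR1- cells, which departs from Apoe. On the CD8+CX3CR1+ array, set against the CD8+CX3CR1- array, 3 were higher by at least 4-fold and 0 lower (median 0.21 against 0.00), namely Lrp1, Lrp8, a further apolipoprotein E receptor (at least 5.41-fold), and Lpl, lipoprotein lipase (at least 5.32-fold). Of all detected genes 1.67% were higher and 1.15% lower by 4-fold in this pair. Lrp8 did not separate the CD4+ and DN arrays (307.9 and 327.5). Pltp, a phospholipid transfer protein, was highest on the CD4+ array, at 232.0, with 63.1 in CD8+CX3CR1+, 127.3 in DN and less than the floor in CD8+CX3CR1- cells. Other targets of liver X receptors differed less, with Abcg1 at 1004, 867.3, 889.6 and 707.4 and Mylip at 576.2, 550.0, 614.0 and 457.9 on the CD8+CX3CR1+, CD8+CX3CR1-, CD4+ and DN arrays. Nr1h3, for liver X receptor alpha, was above the floor on the CD4+ array alone, at 90.9.

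Of 15 measured scavenger receptor cysteine-rich genes and partners of Cd5l, 8 were detected, and the median was 0.00 between the CD8+CX3CR1+ and CD8+CX3CR1- arrays and 0.10 between the CD4+ and DN arrays, against 0.00 and 0.01 over all detected genes. Marco, of marginal zone macrophages, was under the floor on all arrays. Cd163, the haemoglobin scavenger receptor, was above the floor on the CD4+ array alone, at 73.8. Cd5, a receptor of the same domain family, had 117.4, 45.4, 170.7 and 128.1, and the class A scavenger receptor gene Msr1 had 45.9, 30.9, 111.1 and 72.8, on the CD8+CX3CR1+, CD8+CX3CR1-, CD4+ and DN arrays. Cd36, through which the Cd5l protein enters cells, ran the other way, at 57.8, 1454, 31.7 and 165.4. Fasn, the fatty acid synthase that the Cd5l protein inhibits in adipocytes, also had its highest signal on the CD8+CX3CR1- array, at 984.3, and its lowest on the CD4+ array, at 284.6. At 4-fold, Cd36 was the only one of the 8 called in these 2 pairs. It was lower in CD8+CX3CR1+ than in CD8+CX3CR1- cells, as were 1.15% of detected genes.

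Among 12 measured transcription factors that have been tied to these genes, 9 were detected. Their median was 0.25 between the CD8+CX3CR1+ and CD8+CX3CR1- arrays and -0.12 between the CD4+ and DN arrays, against 0.00 and 0.01 over all detected genes, and at 4-fold Irf8 was called lower in each pair and no other was called. Of all detected genes 1.15% and 0.182% were lower by 4-fold in these pairs. Irf8 had 1409 in CD8+CX3CR1+, 13285 in CD8+CX3CR1-, 616.7 in CD4+ and 4847 in DN cells, so the arrays with high C1q signals were those with low Irf8. Spi1, which encodes PU.1, lay between 919.1 and 1214, and Mitf between 124.0 and 170.5. Tfeb was highest on the DN array, at 294.5, and between 119.9 and 146.3 on the others. Cebpa had 160.0 in CD8+CX3CR1+ and 118.0 in DN cells and did not reach the floor in the others.

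Markers of spleen macrophages were read beside the 5 genes, because red pulp macrophages make them too. Of 13 red pulp markers, 9 were over the floor in CD8+CX3CR1+, 7 in CD8+CX3CR1-, 9 in CD4+ and 7 in DN cells. Between the CD4+ and DN arrays 0 of the 13 passed 2-fold in either direction, with a median of 0.29 against 0.01 over all detected genes. Of all detected genes 4.34% were higher and 3.23% lower there. With signals raised to the floor, Spic, Hmox1, Cd163, Fcgr1 and Axl (at most 79.6) could not pass 2-fold. Mertk and Fcna were under the floor on both arrays, so they could not pass either. Between the CD8+CX3CR1+ and CD8+CX3CR1- arrays, 6 of the 13 were higher by at least 2-fold and 0 lower, with a median of 0.92 against 0.00. Of all detected genes 7.72% were higher and 5.81% lower in this pair. Spic, the factor that red pulp macrophages need, was 56.9, 74.1, 70.5 and 79.6 on the CD8+CX3CR1+, CD8+CX3CR1-, CD4+ and DN arrays, close to the floor throughout. Hmox1, Cd163, Fcgr1 and Axl had no signal over 73.8. Cd163, Fcgr1 and Axl were above the floor on the CD4+ array alone, at 73.8, 68.0 and 71.6. Hmox1 was above it on the CD8+CX3CR1- array alone, at 71.6. Vcam1 had 291.1, 513.3, 142.1 and 109.3 in the same order of arrays and was highest in CD8+CX3CR1- cells. Slc40a1 had 116.1, 33.8, 49.8 and 105.4, over the floor on the CD8+CX3CR1+ and DN arrays alone. Mrc1 had 189.0, 100.1, 67.0 and 63.8. Adgre1 had 578.5, 143.1, 3068 and 1692, so it was lower on the CD8+CX3CR1+ than on the DN array. Sirpa had 731.1, 64.1, 963.3 and 687.0, with its highest signals on the CD4+ and CD8+CX3CR1+ arrays.

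The summed signal of the 13 red pulp markers was 13785 in CD8+CX3CR1+, 1640 in CD8+CX3CR1-, 18568 in CD4+ and 12033 in DN cells. The CD8+CX3CR1+ and CD4+ arrays had the highest sums. Csf1r, Sirpa and Adgre1, which DCs also express, made up most of the sum on every array but CD8+CX3CR1-, where they gave 705.5. Without these 3 the sum was 1184, 934.4, 642.3 and 510.9 in the same order, highest for the subsets that carry CD8. This split was chosen after the values were seen. Vcam1 alone made up 291.1, 513.3, 142.1 and 109.3 of these sums, and the place of the CD8+CX3CR1- array above the CD4+ array rests on it. Without Vcam1 too, the CD8+CX3CR1+ and CD4+ arrays would have the highest sums, the same split as for the 5 genes. This further step was also chosen after the values were seen. On the CD4+ array every marker then left was at 73.8 or less. Hmox1, Slc40a1, Mertk and Fcna were under the floor there (4.8, 49.8, 50.0 and 44.7), and signals under the floor cannot be ranked. Mertk, which takes up dying cells, had 164.6 on the CD8+CX3CR1+ array and was under the floor on the others, and Fcna, for ficolin A, had 192.8 there and was likewise under the floor elsewhere. Their higher signals went with those of the C1q chains on the CD8+CX3CR1+ array but not on the CD4+ array, and the part of macrophage RNA in the result was not tested. In the list for marginal zone and metallophilic macrophages, Marco, Timd4 and Clec4f were under the floor on all arrays, Cd209b and Siglec1 reached at most 82.0 and 64.3, and Lgals3, which many cells express, was bright throughout (4124 to 9881) and highest on the CD8+CX3CR1- array. Its summed signal was 4800, 10078, 4471 and 5522 on the CD8+CX3CR1+, CD8+CX3CR1-, CD4+ and DN arrays.

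**Figure D4:**
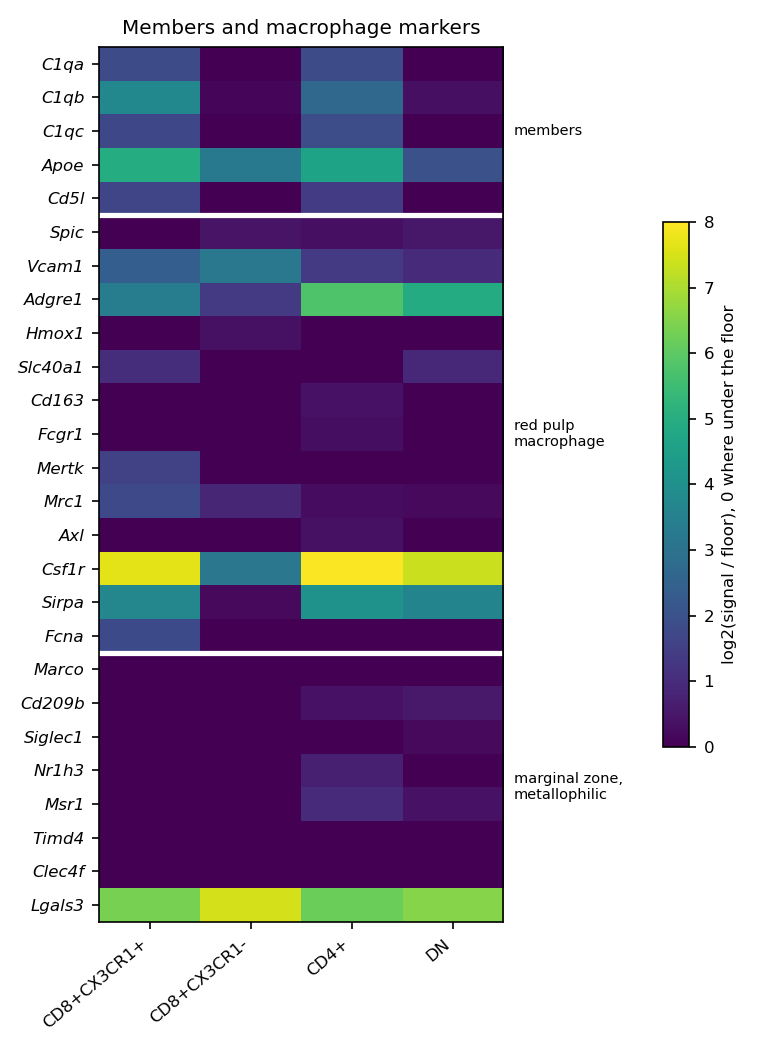
Log2 of signal over the floor (colour, 0 where under the floor) for the 5 genes, 13 red pulp macrophage markers and 8 marginal zone and metallophilic macrophage markers on the CD8+CX3CR1+, CD8+CX3CR1-, CD4+ and DN arrays. The 5 genes alternate between high and low across the arrays, while Spic, Hmox1, Cd163, Fcgr1 and Axl stay near 0 and Csf1r, Sirpa and Adgre1 are lowest on the CD8+CX3CR1- array.

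Markers of other cell types had these summed signals on the CD8+CX3CR1+, CD8+CX3CR1-, CD4+ and DN arrays. Monocyte markers had 26397, 13472, 41317 and 27495, of which Csf1r (11291, 498.3, 13894 and 9142) and the lysozyme genes Lyz1 (7399, 6651, 15617 and 10154) and Lyz2 (1736, 1652, 7284 and 2834) made up the most. Plasmacytoid DC markers had 9183, 2111, 2690 and 3444, with Tcf4 the brightest at 3489 on the CD8+CX3CR1+ array. B cell markers had 1623, 1001, 3540 and 3367, of which Cd22, the brightest, had 396.4, 268.6, 2513 and 2713. Cd79a, a defining gene of B cells, was under the floor on all arrays, at 36.6 or less. The neutrophil list had at most 249.8, the T cell list at most 180.5 and the erythroid and platelet list at most 273.7 in sum on any array. NK cell markers had 4053, 380.1, 2095 and 2974, with Klrd1 (3723, 166.9, 1886 and 2628) the brightest. None of these sums had the CD8+CX3CR1+ and CD4+ arrays above the other arrays other than that of the T cells (180.5, 79.3, 180.4 and 129.3). In both comparisons without a common array, 0.666% of all detected genes were higher by at least 2-fold. Of all the cell type markers, 2 followed the C1q chains in this. These were the B cell receptor gene Cd79b (593.0, 3.1, 401.8 and 178.0) and Ace, a marker of patrolling monocytes (149.7, 22.9, 226.4 and 112.9). The part of monocyte RNA in the result was not tested. The CD4+ array had the highest Gapdh 3'/5' signal ratio, 11.8, a measure that rises as RNA degrades, and the DN array the lowest, 7.56, while the CD8+CX3CR1+ and CD8+CX3CR1- arrays had 8.98 and 8.33. The Actb 3'/5' ratio was 2.32, 1.79, 2.86 and 2.23 on the CD8+CX3CR1+, CD8+CX3CR1-, CD4+ and DN arrays. By each ratio the CD8+CX3CR1+ and CD4+ arrays were higher than the CD8+CX3CR1- and DN arrays, the same split as for the 5 genes, and the part of RNA quality in the result was not tested.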

How the data were processed

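RNA of 4 sorted spleen DC subsets was measured on 1 Affymetrix whole-genome mouse array each. The deposited values are an intensity (MAS5 signal, by the tool the submitters' processing notes name, with no version) for each probe set. Leaving out the lowest and highest 2% of probe sets, every array averaged 150.0, so this scaling hides differences in total RNA. Of 45101 probe sets, 64 were controls, 34945 had 1 gene symbol, 932 several and 9160 none. The probe set brightest on average (log2) stood for its gene, signals under the floor of 55.7 (90th percentile of 127 chemosensory receptor and keratin-associated probe sets) were raised to it, and a difference of 4-fold, a log2 difference of 2, was called. Folds with 1 signal under the floor are bounds.

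Groups came from titles, and 6 pairs of arrays were compared. With 1 array per subset there are no tests, and the number of arrays limits the precision. The genes and gene lists were chosen with earlier results of these data known. Named genes are the sort markers, all probe sets of the 5 genes, the 5 nearest patterns to each and the 4 widest spans in each function list. The 3 brightest genes of each macrophage list and of the monocyte list are named too. From the other cell type lists only some genes, or none, are named. Further genes of these lists and the chromosomal neighbours were named after their values were seen. Alternatives were quantile normalization, equal medians, floors at the 75th and 95th percentiles, of each array or none, averaged probe sets, no _x, _s and _a probe sets, and thresholds of 2-fold and 8-fold. The steps, run in Python 3.11.15 with pandas 2.3.3 and numpy 2.4.6, were tested on simulated arrays.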

Additional observations from a re-analysis of the deposited data

How the results depend on the processing

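Of the 10 alternatives, 8 recompute differences, and those on probe sets do so for C1qb alone, since the other genes have 1 probe set. Apoe's only probe set is of the _a kind, so leaving out such probe sets was not run for it, and for C1qb it kept the same probe set. Every difference of the 5 genes that was at least 2-fold kept its direction wherever it was recomputed, and 25 of 192 recomputed differences moved by more than the probe set spread, 10 with the floor at the 75th percentile, 12 with no floor and 3, all of C1qb, with probe sets averaged. C1qb on the CD8+CX3CR1+ array then had log2 differences of 2.55 against the CD8+CX3CR1- array, 2.28 against the DN array and 0.29 against the CD4+ array. The number of the 5 genes past 4-fold rested on the floor, since 3 of them were bounds. With the floor at the 75th percentile or with no floor it was 4 for the CD8+CX3CR1+ array higher than the CD8+CX3CR1- or the DN array, for the CD4+ array higher than the DN array, and for the CD8+CX3CR1- array lower than the CD4+ array. Over all genes the calls in the same order were 280, 57, 50 and 309 of 15280 detected with the floor at the 75th percentile. With no floor they were 864, 568, 910 and 1234 of 12608. With averaged probe sets, C1qb (1.99) was not past 4-fold on the CD4+ array against the DN array. That left 1 gene, Apoe, where 11 of 10613 detected genes were called. At a 2-fold threshold all 5 genes passed in each of these pairs, and the shares of all genes stand with each pair above. In addition, 1 was higher on the CD8+CX3CR1+ than on the CD4+ array and 1 higher on the CD8+CX3CR1- than on the DN array. At 8-fold the count was 1 for the CD8+CX3CR1+ against the DN array, where 7 of all detected genes passed. It was 0 for the CD8+CX3CR1- array lower than the CD4+ array, where 88 passed, and 0 for the CD4+ against the DN array, where 0 passed. Signals under the floor cannot be ranked. Over all alternatives, thresholds included, the count of all detected genes higher on the CD8+CX3CR1+ than on the CD8+CX3CR1- array ranged from 82 to 973 (210 as reported), and on the CD4+ than on the DN array from 0 to 910 (9 as reported). Equal median scaling moved the median of all genes by up to 0.18 (log2). No paired analysis was possible because each subset had 1 array.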
